A study of Mus musculus with 24 samples.

Results

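The antiviral interferon-stimulated genes described here are 41 genes chosen by name for their known place in the interferon response, from the sensors of viral nucleic acid to the proteins that block a virus inside the cell. They were found on the arrays by the gene name given to each probe. Of the 41 genes, 40 had at least 1 probe of that name and all 40 passed the filter on dim probes, with 74 probes between them, and they were read against 25956 genes tested in all. Ifi203 had no probe of that name, so no value is given for it and it enters only the search of promoters. No measured value was used to choose the genes, although the list was drawn up with earlier results of these data known.

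The RNA came from mouse bone marrow cultures that had become macrophages during 6 days with the growth factor M-CSF at 20 ng/ml, and was hybridised to 24 one-colour microarrays, 4 in each of 6 groups. WT cells carried the floxed Slc2a1 gene (Slc2a1 fl/fl), which encodes the glucose transporter GLUT1, and no deletion. KO cells carried the same floxed gene together with LysMCre, a Cre recombinase expressed from the lysozyme gene Lyz2 in macrophages, granulocytes and other myeloid cells, so that both genotypes share the floxed allele and differ in Cre. For each genotype there was an M0 group without stimulus, an M1 group with interferon-gamma (10 ng/ml) plus lipopolysaccharide (5 ng/ml) and an M2 group with interleukin-4 (10 ng/ml), all over 24 h. Nothing in the labels gives the age of the mice, and the 4 arrays of a group are called biological replicates without saying whether these were separate animals or cultures, so the p-values measure the spread between these samples.

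Interferons are secreted proteins that warn cells of a virus. Type I interferons bind a receptor whose kinases Jak1 and Tyk2 switch on a complex that holds Stat2 and Irf9 and binds the interferon-stimulated response element in the promoters of these genes, whereas interferon-gamma acts on another element. Macrophages given lipopolysaccharide also make interferon-beta themselves, through the receptor Tlr4 and the factor Irf3, and so receive both signals.

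Levels below are log2 intensities relative to the 75th percentile of the array, so that a level of 0 is the intensity of that percentile, and a difference of 1 is a doubling. Differences were tested with limma over all 24 arrays and called at a Benjamini-Hochberg adjusted p under 0.05 over all genes. Brightness is not comparable between probes, so genes are compared by their differences and not by their levels. In RNA of whole cultures, fewer cells that express a gene and less RNA of it per cell cannot be told apart.

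By the slide and the position on it, the arrays form 4 sets. Sets 1 to 3 each hold all 6 groups on a slide, and the 4th set is made of the last pair of arrays of every slide, with a WT and a KO array of the same state. The 4th set stood apart from the others: the Y-linked gene Ddx3y lay at -8.98 to -7.96 on its 6 arrays and at -1.22 to 0.49 on the other 18, and Xist lay at -1.44 to -0.52 against -9.07 to -4.33. This is the pattern of female cells on the 4th set and of male cells on the other 18 arrays. The sex is read here from such genes alone, and every difference of the 4th set is also a difference of sex. Values with and without this set are therefore given for the results it touches. The 75th percentile was 2386 ± 115 intensity units in KO M1 (SD, n = 4), the dimmest group, and 3141 ± 463 in WT M1. Slc2a1 itself was at 5.11 ± 0.48 in WT M1 and 5.41 ± 0.13 in KO M1 (SD, n = 4; difference 0.30, SE 0.34, adjusted p = 0.509), and it did not pass the test in M0 or M2 either (adjusted p = 1 in both). The sources used here do not say whether its probe lies in the floxed part, so it checks nothing. Lyz2, which carries the Cre, was 6.36-fold lower in KO M0, 10.1-fold lower in KO M1 and 16.1-fold lower in KO M2 (adjusted p = 0.00253, 4.25e-07 and 1.24e-05), the direction the labels lead to where Cre was inserted into it. In the KO arrays of the 4th set Lyz2 was less low than in the others, at 5.79, 4.69 and 4.28 in M0, M1 and M2 against 2.49 to 4.18 on the other 9. The 8 macrophage markers listed were well above background on all arrays.

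The promoters of these genes are shown first because the whole group moved together in M1. RefSeq promoters (build GRCm38.p6, 250 bases before to 50 bases after each start) could be matched by symbol for 30 of the 41 genes, and not for Mx1, Mx2, Oas1b, Oas2, Usp18, Dhx58, Ifi204, Zbp1, Parp9, Parp14 and Rtp4. They were searched on both strands for GAAANNGAAA, the core of the interferon-stimulated response element, which reads TTTCNNTTTC on the other strand. It was present in 16 of the 30 genes (53.3%), against 3.99% of all 27025 genes with a promoter in the same table. The 140 bases before the start of 6 of them are given below, 5′ to 3′ on the strand of the gene, with every match in capitals. They were picked to show the element in different effector families and at different distances from the start.
Ifit1 (chr19:34640749-34640888, plus strand): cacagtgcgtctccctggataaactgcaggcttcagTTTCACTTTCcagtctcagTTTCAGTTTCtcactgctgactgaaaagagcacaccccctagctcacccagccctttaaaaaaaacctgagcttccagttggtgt
Isg15 (chr4:156200819-156200958, minus strand): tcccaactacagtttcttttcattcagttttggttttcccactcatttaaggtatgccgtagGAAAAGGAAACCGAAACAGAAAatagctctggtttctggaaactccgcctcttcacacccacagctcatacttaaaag
Rsad2 (chr12:26456453-26456592, minus strand): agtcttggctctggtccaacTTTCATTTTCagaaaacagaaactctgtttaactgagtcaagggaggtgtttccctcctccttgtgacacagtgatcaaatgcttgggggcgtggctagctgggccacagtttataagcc
Bst2 (chr8:71537473-71537612, minus strand): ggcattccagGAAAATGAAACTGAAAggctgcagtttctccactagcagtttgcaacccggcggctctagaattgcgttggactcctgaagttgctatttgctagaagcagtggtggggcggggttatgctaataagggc
Oas1a (chr5:120907526-120907665, minus strand): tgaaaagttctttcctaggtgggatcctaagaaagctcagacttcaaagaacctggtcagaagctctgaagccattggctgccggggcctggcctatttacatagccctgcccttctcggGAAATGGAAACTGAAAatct
Oas1g (chr5:120887614-120887753, minus strand): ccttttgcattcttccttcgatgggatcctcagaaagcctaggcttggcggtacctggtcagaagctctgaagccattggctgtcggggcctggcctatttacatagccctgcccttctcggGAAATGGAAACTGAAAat

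Ifit1 holds 2 separate matches, which begin 104 and 85 bases before the start. The 3 matches of Isg15 overlap each other, beginning 78, 72 and 66 bases before it. Rsad2 has 1 match that begins 120 bases before the start, and the 2 of Bst2, 130 and 124 bases before it, overlap. In the neighbouring genes Oas1a and Oas1g, which encode close relatives, the same pair of overlapping matches stands almost at the start, 20 and 14 bases before it in Oas1a and 18 and 12 bases before it in Oas1g. The other genes with a match were Ddx58, Ifih1, Stat2, Oas3, Ifit3, Eif2ak2, Ifitm3, Ifi203, Ifi205 and Trim30a. The element of interferon-gamma, searched as TTCNNNGAA, was present in 9 of the 30 genes (30.0%) against 9.55% of all genes, and in Bst2 its match overlaps the other element. Among the 29 matched genes that were measured, the median rise in M1 in WT was 3.16 for the 15 with a match of the first element and 3.80 for the 14 without, and the ranges overlapped, at 1.36 to 7.28 and 0.79 to 7.93. A match is a description and not a site of binding.

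With lipopolysaccharide and interferon-gamma, every one of the 40 measured genes rose, in both genotypes. In WT the log2 rise from M0 to M1 had a median of 3.32 and ran from 0.79 (Irf9) to 7.93 (Ifi44), against a median of -0.01 over all genes, and all 40 were called higher where 23.2% of all genes were. In KO the median rise was 3.49, from 0.66 (the brightest Samhd1 probe) to 7.03 (Rsad2), against 0.25 over all genes, and again all 40 were called higher, where 32.3% of all genes were. All 40 stayed called in both genotypes when the 4th set was left out, when the set was a block and when any 1 array was left out. With quantile normalization Samhd1 (-0.0060, adjusted p = 0.984) and Oas1b (0.08, adjusted p = 0.611) lost the call in KO. Within each set taken alone the rise was positive for every gene with a value in all 4 WT comparisons and in 3 of the 4 KO ones, with 1 exception in the 4th set of KO. The picture of all 40 genes on the 24 arrays shows the M1 arrays as a solid block of high values, and it shows the 4th array of each M0 and M2 group above its neighbours.

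The largest rise in WT was that of Ifi44, a cytoplasmic protein of the interferon response. In WT its M0 levels in sets 1 to 4 were -5.07, -3.87, -5.42 and -0.05, and its M1 levels 4.33, 4.39, 4.41 and 4.18. The 4 M1 arrays were close together, and the M0 array of the 4th set was far above the other M0 arrays, so that the rise was 7.93 (244-fold, SE 1.29, adjusted p = 3.42e-05) and 9.16 without the 4th set. Mx1, a dynamin-like GTPase that traps viral nucleocapsids, went from -2.10, -1.07, -1.67 and 0.95 to 6.53, 6.46, 6.73 and 6.33, a rise of 7.49 (179-fold, SE 0.67, adjusted p = 1.51e-08). Its relative Mx2 went from -1.91, -0.91, -1.26 and 0.37 to 5.60, 6.15 and 5.02 in sets 1, 3 and 4, with set 2 left out as an outlier spot, a rise of 6.52 (91.6-fold, SE 0.59, adjusted p = 4.81e-08). In all 3 genes every M1 array lay above every M0 array.

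Rsad2 (viperin), an enzyme that makes a chain-terminating nucleotide, stood at -1.04, -0.64, -0.83 and 1.38 in WT M0 and at 7.11, 6.92, 7.20 and 6.76 in WT M1, a rise of 7.28 (156-fold, SE 0.64, adjusted p = 1.18e-08). Ifit2, which binds viral RNA together with its relatives, rose by 7.02 (130-fold, SE 0.64, adjusted p = 2.07e-08), from -1.75, -1.36, -1.83 and 0.94 to 5.86, 6.10, 6.02 and 6.10. Isg20, an RNA exonuclease, rose by 6.54 (92.8-fold, SE 0.52, adjusted p = 3.12e-09), from -1.38, -1.56, -1.76 and 0.40 to 5.42, 5.57, 5.65 and 5.21. Each of these genes was low on 3 M0 arrays, higher on the 4th, and near 1 common level on all 4 M1 arrays.

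By role, the 3 Ifit genes rose by 5.20 to 7.02 in WT and 4.82 to 6.79 in KO. Of the genes around the ubiquitin-like protein Isg15, Isg15 itself rose by 4.88 in WT and 5.08 in KO, Usp18, the protease that removes it from its targets, by 6.15 and 6.07, and Herc6, a ligase that attaches it, by 3.74 and 4.96. The 4 sensors rose by 2.71 to 4.65 in WT, with Zbp1, a sensor of Z-form nucleic acid, at the top. Among the 7 genes of the oligoadenylate synthetases, enzymes that double-stranded RNA switches on, and their relatives, the rises in WT ran from 1.105 for Oas1b to 6.07 for Oasl1. The Oas1b value comes from a probe that lists no RefSeq gene, and the 2 probes that list Oas1b rose by 3.77 and 4.58 in WT and by 2.13 and 2.97 in KO. The transcription factors differed from each other: Irf7, the factor that sustains interferon-alpha production, rose by 3.29 in WT (SE 0.92), Stat2 by 3.16 (SE 0.31) and Irf9 by 0.79 (SE 0.19). Cmpk2, a mitochondrial nucleotide kinase, rose by 6.45, the nucleotide phosphohydrolase Samhd1 by 1.87 on its brightest probe and 3.14 to 3.39 on the other 4, the RNA-activated kinase Eif2ak2 by 1.77 and the RNA editor Adar by 2.32. Among the membrane proteins Bst2 (tetherin), which holds budding virions at the cell surface, rose by 3.02, Ifitm3, which blocks viral fusion, by 1.36, and Rtp4 by 2.48.

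**Figure D1:**
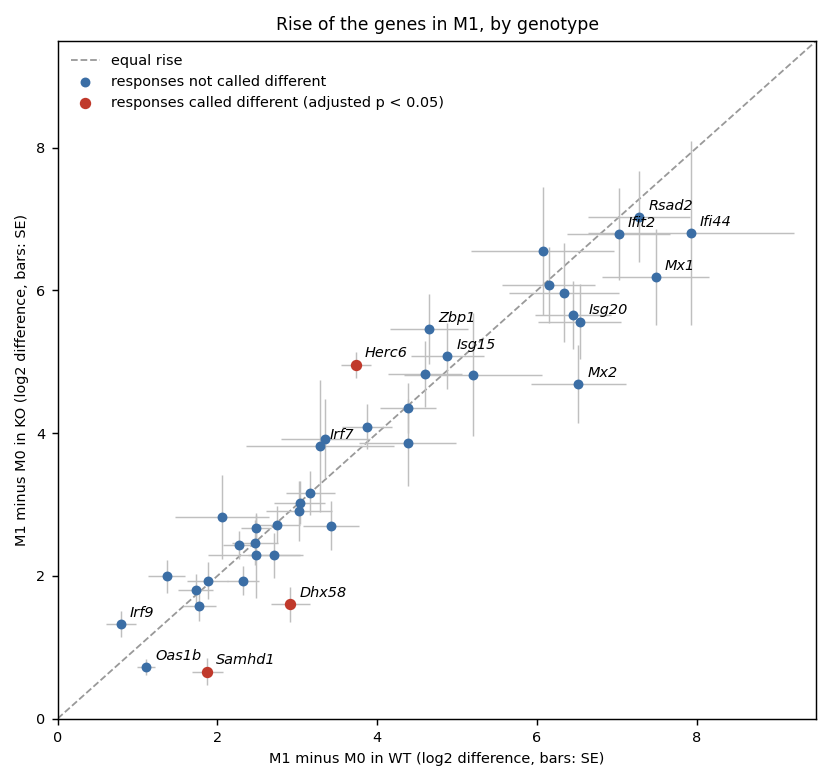
Log2 difference of M1 from M0 in WT (x axis) against KO (y axis) for the 40 genes, with standard errors as bars, the line of equal rise dashed, and the genes whose responses were called different in red. The 3 red genes are Herc6 above the line and Dhx58 and Samhd1 below it.

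With interleukin-4 no gene of the group rose past the test and part of it fell. In WT M2 the log2 difference from M0 had a median of -0.72 and was negative for 35 of the 40 genes, against a median of -0.13 over all genes. The test called 10 genes lower and 0 higher, 25.0% of the group, where 9.72% of all genes were called lower and 5.26% higher: Ifitm3, Irf9, Oas2, Rtp4, Xaf1, Oas1a, Oas3, Oasl2, Trim30a and Dhx58. In KO M2 the median was -0.68 with 36 of 40 negative, and 9 were called lower and 0 higher, where 5.57% of all genes were called lower and 6.51% higher: Ifitm3, Irf9, Oas2, Rtp4, Xaf1, Trim30a, Ifit1, Ifit3 and Mx2. These 2 comparisons share no array, and 6 genes, namely Ifitm3, Irf9, Oas2, Rtp4, Xaf1 and Trim30a, were called in both. The 2 comparisons are not independent, since the error of each gene came from the same fit over all arrays. KO and WT arrays of the same state and replicate number also deviated from their group means together (correlations of 0.17 to 0.85). With only the M0 and M2 arrays of a genotype in the fit, Irf9, Oas2 and Ifitm3 were called in WT and Ifitm3 alone in KO.

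Ifitm3 lay at 5.03, 5.45, 5.22 and 5.68 in sets 1 to 4 of WT M0 and at 3.64, 4.06, 4.02 and 4.21 in WT M2. The groups did not overlap, and it fell by 1.36 (SE 0.23, adjusted p = 0.000318). In KO it went from 4.86, 4.59, 4.47 and 5.50 to 3.49, 3.40, 3.35 and 4.34, where the 4th M2 array came close to the lower M0 arrays, and fell by 1.21 (SE 0.23, adjusted p = 0.0012). Oas2, one of the larger oligoadenylate synthetases, fell by 2.87 in WT (SE 0.59, adjusted p = 0.00196), from 2.67, 3.54, 3.45 and 4.41 to 0.22, -0.03, 0.08 and 2.32. In KO it fell by 2.51 (SE 0.59, adjusted p = 0.00695), from 2.74, 2.75, 2.72 and 4.70 to -0.04, 0.47, -0.20 and 2.63. In both genotypes all 4 M2 arrays were below the 4 M0 arrays, and the array of the 4th set was the highest of its group in M0 and in M2 alike.

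Rtp4, a chaperone of membrane receptors, fell by 2.47 in WT (SE 0.60, adjusted p = 0.00717), from 2.89, 4.07, 3.66 and 4.99 to 1.16, 0.96, 0.54 and 3.05. Its KO arrays went from 3.34, 3.50, 2.81 and 4.94 to 0.78, 0.94, -0.10 and 3.04, a fall of 2.48 (SE 0.60, adjusted p = 0.00834). Here the M2 array of the 4th set overlapped the M0 arrays of the other sets in both genotypes. Irf9 went from 2.90, 3.37, 3.39 and 3.65 to 2.31, 2.15, 2.36 and 2.82 in WT and fell by 0.92 (SE 0.19, adjusted p = 0.00195). In KO it went from 2.97, 3.11, 3.07 and 3.58 to 2.33, 2.46, 2.39 and 2.88, and fell by 0.67 (SE 0.19, adjusted p = 0.0235), with no overlap. Irf9 rose least in M1 in WT and was among the clearest falls in M2.

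The number of genes called after interleukin-4 depended on the arrays of the 4th set. Without that set 19 genes were called lower in WT, where 16% of all genes were, and 19 in KO, where 6.71% of all genes were, with medians of -0.70 and -0.59. Usp18 was then called higher in both genotypes (1.68 and 1.72, adjusted p = 0.00147 and 0.00156), and Samhd1 in KO (0.54, adjusted p = 0.0269), where 5.54% of all genes in WT and 7.04% in KO were called higher. With all arrays Usp18 stood at 1.43 in WT (SE 0.53, adjusted p = 0.0808) and 1.41 in KO (SE 0.53, adjusted p = 0.0972). With the set as a block 12 genes were called lower and 1 higher in each genotype, where 17% of all genes in WT and 10.7% in KO were called lower and 7.84% and 10.1% higher. Leaving out 1 array at a time gave 5 to 15 calls in WT and 3 to 12 in KO, the highest without replicate 4 of M2, the array of the 4th set, and the lowest without replicate 1, 2 or 3 of M2 (in WT also without replicate 3 of M0). With only the M0 and M2 arrays of 1 genotype in the fit, 3 genes were called lower in WT and 1 in KO and 0 higher, where 4.28% of all genes in WT and 3.92% in KO were called lower and 2.63% and 4.56% higher. Ifi44 was well above background on 2 of the 4 M2 arrays of each genotype, so its values of -1.23 and -2.17 rest partly on dim spots, and neither passed the test. The response to interleukin-4 did not pass the test for a difference between the genotypes in any of the 40 genes, where 0% of all 25956 genes did (limma, 0 of the 40 with an unadjusted p under 0.05). The difference of the M2 response had a median of 0.08 over the genes and of 0.10 over all genes.

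**Figure D2:**
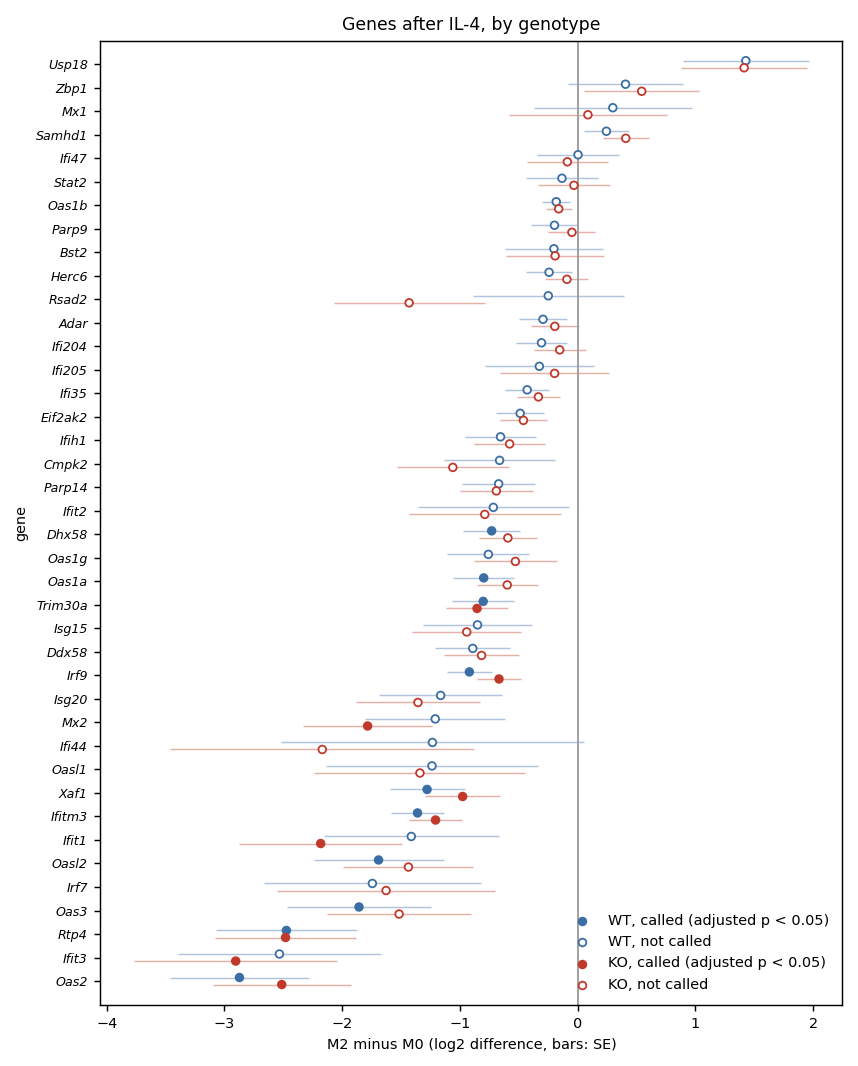
Log2 difference of M2 from M0 for the 40 genes in WT (blue) and KO (red), in order of the WT value, with standard errors as bars and filled points for genes called at an adjusted p under 0.05. Most points lie left of 0, and the widest bars belong to Ifi44.

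KO and WT macrophages did not differ in these genes past the test at rest or after interleukin-4. In M0 the KO minus WT difference was called for 0 of the 40 genes (limma, 1 with an unadjusted p under 0.05), where 0.0539% of all genes were called, and its median was -0.14, from -0.49 to 0.37. Although 33 of the 40 differences were negative, the median within a set was 0.37 in set 1, -0.59 in set 2, -0.42 in set 3 and -0.03 in the 4th. In all 4 sets 5 genes were lower in KO, a count whose share over all genes is not given here. In no gene of the group did the 4 KO arrays lie apart from the 4 WT arrays in M0, where 0.663% of all genes were higher and 1.71% lower in that way. In M2 the difference was called for 0 of the 40 (limma, 0 with an unadjusted p under 0.05), where 0.0462% of all genes were called. No gene of the group had separate KO and WT arrays in M2 either, where 1.79% of all genes were higher and 0.401% lower in that way. The median was -0.08, from -1.14 (Rsad2) to 0.19 (Herc6), and within the sets it was -0.05, 0.08, -0.25 and -0.10.

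In M1 macrophages KO and WT differed in 7 of the 40 genes. The test called 1 gene higher (Herc6) and 6 lower (Mx2, Dhx58, Samhd1, Oas1g, Adar and Oas1b), 17.5% of the 40, where 43.6% of all genes were called in this comparison, 23.9% higher and 19.7% lower. The median difference was -0.21, from -1.80 to 1.26, against 0.17 over all genes. Within the sets the median was -0.14, -0.06, -0.23 and -0.32 and over all genes 0.19, 0.26, 0.11 and 0.03. Of the 36 genes with values in all sets 18 were lower in KO in all 4, and 5 higher. The share of all genes for this count is not given here, so it describes the group only. The share of the group that was called was thus below that of all genes in each direction, and most of its calls were lower.

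Herc6 was at 2.37, 2.71, 2.74 and 1.80 in sets 1 to 4 of WT M1 and at 3.70, 3.77, 3.74 and 3.46 in KO M1. Every KO array lay above every WT array, and the difference was 1.26 (2.39-fold higher, SE 0.18, adjusted p = 1.11e-05). Dhx58, a helicase of the RIG-I family that tunes the other sensors, was at 4.17, 4.07, 4.08 and 4.11 in WT and at 2.66, 2.89, 2.69 and 2.16 in KO, 2.85-fold lower (log2 difference -1.51, SE 0.24, adjusted p = 3.3e-05). Its WT arrays lay within 0.10 of each other. Samhd1, which degrades the deoxynucleotides a virus needs for its DNA, was at 6.77, 6.45, 6.65 and 6.69 in WT and at 5.19, 5.57, 5.26 and 5.18 in KO, 2.53-fold lower (log2 difference -1.34, SE 0.19, adjusted p = 9.09e-06). In both genes the groups lay apart without overlap.

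Mx2 was at 5.60, 6.15 and 5.02 in sets 1, 3 and 4 of WT and at 4.04, 4.03, 4.06 and 3.03 in KO, 3.48-fold lower (log2 difference -1.80, SE 0.59, adjusted p = 0.0194). Oas1g was at 3.80, 3.99, 4.04 and 3.64 in WT and at 2.57, 2.99, 2.83 and 2.27 in KO, a log2 difference of -1.20 (SE 0.35, adjusted p = 0.00807). In both genes the 4th set was the lowest of each genotype, and the groups did not overlap. Adar was at 3.87, 3.86, 3.97 and 3.33 in WT and at 3.48, 3.05, 3.47 and 2.81 in KO, a difference of -0.56 (SE 0.20, adjusted p = 0.0324) with overlapping groups. Oas1b, whose intact form confers resistance to flaviviruses in wild mice, was at 5.56, 5.45, 5.56 and 5.22 in WT and at 5.00, 5.15, 5.02 and 4.90 in KO, a difference of -0.43 (SE 0.11, adjusted p = 0.00359). Adar and Oas1b were the 2 smallest of the called differences.

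Different probes of a gene did not always tell the same. All 5 Samhd1 probes gave lower values in KO M1, from -1.34 to -0.52, and both Dhx58 probes did (-1.51 and -1.27). The other 2 Oas1b probes gave larger differences, -1.68 and -1.88, than the brightest one used here, which lists no RefSeq gene as its target while these 2 list Oas1b. The other Adar probe went the opposite way, at 0.59, and both passed the test over all probes (adjusted p = 0.0359 and 0.0373), so no direction is given for Adar as a gene. The other Mx2 probe, well above background on 11 of the 24 arrays, gave 0.09. Parp9, an ADP-ribosyltransferase relative without a call on its brightest probe (0.08), had another probe, with no RefSeq gene listed, at 2.13 in KO M1 (adjusted p = 0.00444), and Xaf1, at 0.05, had another at -1.37 (adjusted p = 0.000935). The other probes of Mx1 (-1.74, adjusted p = 0.0222) and of Irf9 (0.79, adjusted p = 0.0022) passed the test where the brightest ones, at -1.08 and 0.39, did not (adjusted p = 0.204 and 0.111 over all probes). The probe of Oas1a lists Oas1g as a target too and that of Ifi205 lists Ifi211, so these signals may mix near-identical copies.

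More calls were made in KO M1, in the group and over all genes, when the arrays were paired by state and replicate number. With the array set as a block the count stayed at 7, where 8028 of the 25956 genes were called higher and 5905 lower. KO and WT arrays of the same state and replicate number, which also share a slide and an array set, deviated from their group means together (correlations of 0.17 to 0.85). With state and number as a block 3 genes were called higher and 11 lower. Of all genes 31.7% and 23.8% were then called higher and lower, against 23.9% and 19.7% without pairing. The group's share of higher calls stayed below that of all genes, and its share of lower calls was near it. On the brightest probes Mx2, Oas1g, Dhx58, Samhd1, Adar and Oas1b remained lower and Herc6 higher. Without pairing, the mean over all probes gave positive differences for Mx2 (0.44) and Adar (0.019). The 7 added genes were Irf9 and Zbp1 (higher) and Oas3, Cmpk2, Ddx58, Isg20 and Mx1 (lower). Mx1 was at 6.53, 6.46, 6.73 and 6.33 in WT and at 5.59, 5.74, 5.58 and 4.85 in KO, a difference of -1.08 with an adjusted p of 0.207 without pairing and of 0.00825 with it. Zbp1 was at 4.26, 4.22, 4.43 and 4.18 in WT and at 4.99, 4.92, 4.73 and 4.73 in KO, a difference of 0.57 with adjusted p of 0.368 and 0.0403. Without regard to any test, 13 genes had all 4 KO M1 arrays below the WT arrays and 2 (Zbp1 and Herc6) had them above, where 20% of all genes lay below and 23.6% above. The 13 were Ddx58, Dhx58, Oas1b, Oas1g, Oas3, Ifit2, Ifit3, Mx1, Mx2 (with 3 WT arrays), Isg20, Samhd1, Rtp4 and Ifi44.

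**Figure D3:**
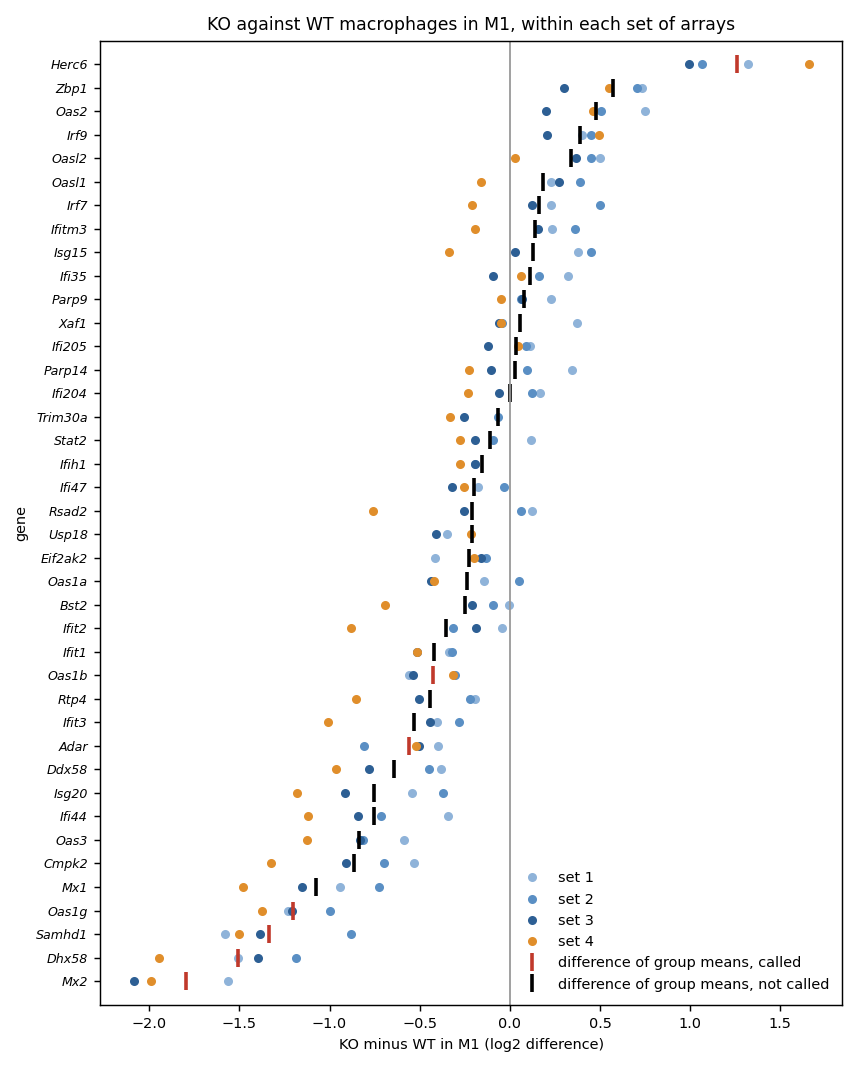
KO minus WT log2 difference in M1 for the 40 genes, with 1 point for each set of arrays and a bar for the difference of the group means, red where called by the test over all arrays. Herc6 is at the top at 1.26 and Mx2 at the bottom at -1.80, and the points of the 4th set often lie to the left of the others.

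How the arrays were brought to 1 scale changed the balance of this comparison. With quantile normalization the median difference over all genes moved from 0.17 to -0.07, and that of the group from -0.21 to -0.85. 17 of its genes were then called, 1 higher and 16 lower, where 17.2% of all genes were called higher and 26.4% lower. Under the 75th percentile, quantile and normexp settings alike, 1 gene (Herc6) was higher in KO M1 and 25 were lower, and for 14 the sign was not the same in all 3. The matching counts over all genes are not given here. Zbp1 is among those 14, at 0.57 with the percentile and -0.13 with quantile normalization. Dhx58, Samhd1, Mx2, Oas1g and Oas1b were lower under all 3.

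The response itself, M1 minus M0, was tested for a difference between the genotypes. It differed for 3 genes, 7.50% of the group, where 29% of all genes differed, 15.6% to the higher and 13.4% to the lower side. Herc6 rose by 3.74 in WT and 4.96 in KO (difference 1.23, SE 0.26, adjusted p = 0.00107). Dhx58 rose by 2.91 and 1.60 (difference -1.31, SE 0.35, adjusted p = 0.00625), and Samhd1, on its brightest probe, by 1.87 and 0.66 (difference -1.22, SE 0.27, adjusted p = 0.00182). The other 4 Samhd1 probes rose by 2.50 to 3.14 in KO, and their differences of the response ran from -0.76 to -0.17 and did not pass the test over all probes (adjusted p = 0.0517 to 0.928). Oas1b had no call on its brightest probe (-0.38, adjusted p = 0.104 over all probes), while the 2 probes that list it gave -1.64 (adjusted p = 0.00101) and -1.61 (adjusted p = 0.124). With the pairing 4 genes responded more in KO and 9 less, where 22.1% and 18% of all genes did. Mx2, on its brightest probe and with 3 values in WT M1, was among them at -1.91 (adjusted p = 0.000497, against 0.103 without pairing). Its rise on that probe remained large in both genotypes, at 6.52 and 4.68. With the mean over all its probes, Mx2 was not lower in KO M1 than in WT M1 (0.44). On average over the 3 states 1 gene was higher in KO and 3 lower, where 27.4% of all genes were called, 15.3% higher and 12% lower. Herc6 (0.49, SE 0.11, adjusted p = 0.00194) was higher, and Dhx58 (-0.59, SE 0.14, adjusted p = 0.00341), Oas1g (-0.65, SE 0.20, adjusted p = 0.0201) and Samhd1 (-0.47, SE 0.11, adjusted p = 0.00333) were lower. With the pairing this was 1 higher and 12 lower, where 24.3% and 17.7% of all genes were.

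Upstream of these genes, the ligands, receptor and kinases were read from lists of the pathway. Ifnb1, which encodes interferon-beta, was well above background on the 8 M1 arrays alone, at -1.54, -2.35, -2.47 and -4.28 in WT and at -1.86, -0.94, -1.24 and -1.91 in KO. Its rise in M1, set against the dimmest signals still above background on the M0 arrays, was at least 32.5-fold in WT and at least 76.0-fold in KO (adjusted p = 7.77e-09 and 3.65e-10). The genotypes overlapped in M1, and the difference of 1.17 (SE 0.49) had an adjusted p of 0.0584 without pairing and of 0.0442 with it. Of 13 measured ligand genes 7 were higher in KO M1 and 0 lower, where 23.9% of all genes were called higher and 19.7% lower, and the same shares stand behind the counts of the other lists below. The median difference of the ligands was 0.72, against 0.17 over all genes and 0.44 over all genes with no filter on dim probes. Ifna5 (0.78), Ifnab (0.64), Ifna2 (0.77), Ifnl3 (0.76) and Ifna1 (0.44) were among them, although the interferon-alpha genes are near-identical copies whose probes may share signal, and Ifna1 (0.25, adjusted p = 0.10) and Ifna14 (0.28, adjusted p = 0.154) lost their calls with quantile normalization. Ifna2, Ifna5, Ifnab, Ifnl3 and Ifng kept theirs, while Ifna7, Ifna9 and Ifna12, not called before, moved to 0.02, -0.21 and 0.04. Several ligand probes were dim. Ifng was well above background on 1 WT M1 and 3 KO M1 arrays, and Ifna7 and Ifna11 on 2 in each M1 group. The part of dim signal in these differences was not tested.

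Of 11 genes for receptors, kinases and Stat factors, 3 were higher in KO M1 and 3 lower. Tyk2 was at 3.02, 2.93, 2.77 and 3.00 in WT M1 and at 1.38, 1.57, 1.48 and 1.21 in KO M1 (difference -1.52, SE 0.14, adjusted p = 2.1e-08). It rose by 1.36 in M1 in WT, and its difference from M0 in KO was -0.02. The receptor chain Ifnar1 was at 3.93, 3.49, 3.66 and 3.27 in WT M1 and at 3.07, 3.03, 2.84 and 2.45 in KO M1 (difference -0.74, SE 0.17, adjusted p = 0.00125), and its partner Ifnar2 differed by 0.38 (SE 0.15, adjusted p = 0.0432), with 0.03 and no call under quantile normalization. Both Tyk2 and Ifnar1 were thus lower in KO with no overlap between the groups. Jak2, the kinase of the interferon-gamma receptor, was higher (1.18, SE 0.27, adjusted p = 0.00139), the receptor chain Ifngr1 lower (-0.58, SE 0.22, adjusted p = 0.0377), and Jak1 higher (1.02, SE 0.14, adjusted p = 5.26e-06), with 0.09 and no call for Jak1 under quantile normalization.

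Of 18 genes that sense microbes and induce interferon, 3 were higher in KO M1 and 7 lower. Traf3, an adaptor of the interferon-inducing pathways, was higher by 1.94 (SE 0.12, adjusted p = 1.41e-10), and Ticam2, an adaptor of Tlr4, by 1.42 (SE 0.17, adjusted p = 1.01e-06). Tlr3, the receptor for double-stranded RNA, was lower (-1.90, SE 0.27, adjusted p = 6.45e-06), as were the kinase Ikbke (-1.59, SE 0.22, adjusted p = 5.35e-06) and the factor Irf5 (-1.105, SE 0.13, adjusted p = 7.94e-07). Irf1, the main early factor of interferon-gamma, rose by 3.05 in WT and 3.23 in KO and differed by 0.28 in M1 (SE 0.23, adjusted p = 0.346), a sign that turned with quantile normalization (-0.13).

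Of 10 genes that restrain the pathway, 3 were higher in KO M1 and 3 lower. Socs1, the inhibitor of the Jak kinases, rose in M1 by 8.22 in WT and 6.74 in KO and in M2 by 6.03 and 5.60. It was lower in KO M1, at 6.38, 5.77, 5.75 and 5.78 in WT and 5.10, 5.03, 4.76 and 4.26 in KO (difference -1.13, SE 0.27, adjusted p = 0.00148). The phosphatase Ptpn6 (-1.45, SE 0.12, adjusted p = 3.31e-09) and the repressor Irf2 (-1.37, SE 0.14, adjusted p = 6.73e-08) were lower too. Tnfaip3 (1.35), Pias4 (0.91) and Ptpn2 (0.75) were higher, with adjusted p of 3.28e-05, 4.65e-05 and 0.00014. In M0 and M2 the KO minus WT difference was called for 0 genes of the 4 lists (limma), where 0.0539% and 0.0462% of all genes were called.

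Markers of other cells moved with the KO and WT difference in M1. KO M1 had 3 of 9 neutrophil markers called higher and 1 lower, and 6 and 1 with the pairing, where 31.7% and 23.8% of all genes were. Of 4 B-cell markers 2 were called higher (3 higher and 1 lower with the pairing) and of 3 mast-cell and basophil markers 1 (3 with the pairing). The summed level of the neutrophil markers, in multiples of the 75th percentile, was 47.4 to 122.4 on the KO M1 arrays and 13.4 to 48.4 on the WT M1 arrays. The 5 markers of plasmacytoid dendritic cells, which make much interferon, went both ways, with 2 called higher, 1 (Tcf4) lower and a median difference of 0.09. Their sum, in which bright probes weigh most, was 59.9 to 80.0 in KO M1 and 27.8 to 49.2 in WT M1, with Klk1 at background on all KO M1 arrays. The 8 macrophage markers summed to 417 to 626 and 472 to 582. The part of these cells in the differences of the interferon-stimulated genes was not tested.

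The widest variation of the group outside M1 lay between the 4th set of arrays and the other 3. In M0 39 of the 40 genes were higher on the 4th-set array than on the other 3 arrays in both genotypes, all but Eif2ak2, where 25.5% of all genes were. The median excess was 1.33 on the log2 scale, a 2.51-fold higher level, against 0.02 over all genes, and ran from 0.27 (Oas1b) to 4.57 (Ifi44). In M2 it was 37 of the 40, all but Herc6, Eif2ak2 and Ifi35, where 22.5% of all genes were, with a median excess of 1.03. In M1 the direction was the opposite: 0 genes were higher on the 4th set in both genotypes, where 15.4% of all genes were, and 28 were lower, where 22.9% of all genes were, with a median of -0.32, from -1.101 (Cmpk2) to -0.04 (Samhd1). A WT and a KO array of each state stand behind these values, and since the arrays of a set may share animals or cultures, no test was made.

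Irf7 was in M0 at 3.17, 4.22, 3.52 and 6.77 in sets 1 to 4 of WT and at 3.74, 3.13, 2.69 and 6.65 in KO, at 2.14, 2.01, 1.59 and 4.96 in WT M2 and at 1.98, 1.72, 1.02 and 4.98 in KO M2. In WT M1 it was at 7.80, 7.52, 7.77 and 7.75, so that resting WT cells of the 4th set, at 6.77, came near the M1 level of this gene. Oasl1, which restrains the translation of Irf7, had M0 levels of -0.36, 0.64, -0.11 and 2.85 in WT and of 0.24, -0.63, -0.76 and 2.95 in KO, with 6.84 in the 4th set of WT M1. Ifit3 was at -0.21, 0.82, 0.40 and 3.37 in WT M0 and at -1.16, -1.93, -2.83 and 0.18 in WT M2. In each of the 3 genes the 4th-set array was the highest of its group in M0 and M2.

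Oasl2, a relative of the synthetases with ubiquitin-like domains, had M0 levels of 2.07, 2.50, 2.11 and 4.15 in WT and of 2.43, 2.02, 1.55 and 3.89 in KO. Oas3 had -0.96, -0.58, -1.27 and 0.81 in WT M0 and -2.26, -3.10, -3.25 and -0.82 in WT M2. Ifi44, given above for WT, had -3.12, -5.08, -4.80 and 0.06 in KO M0 and -5.18, -5.71, -6.33 and -2.13 in WT M2. These 6 genes had the largest median excess of the 4th set over the 6 groups, from 3.98 for Ifi44 to 1.80 for Oas3.

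**Figure D4:**
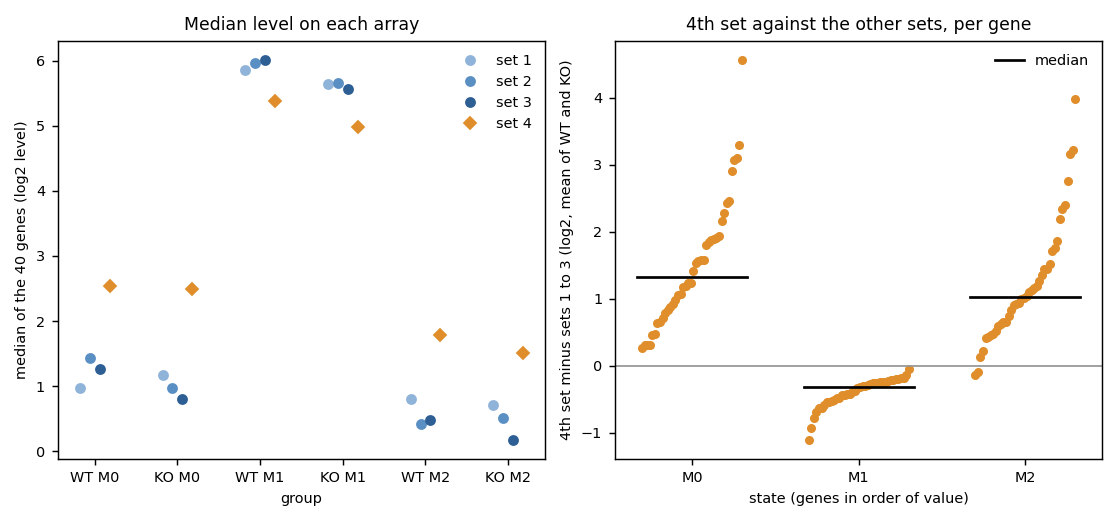
Left, the median log2 level of the 40 genes on each of the 24 arrays, by group, with diamonds for the 4th set. Right, for each gene, the 4th-set array minus the mean of the other 3 arrays of its group, averaged over WT and KO, with the median of the genes as a line at 1.33 in M0, -0.32 in M1 and 1.03 in M2.

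The 4th set also set the size of the errors. The median SD of the 40 genes within an M0 group came to 0.70 for WT and 0.78 for KO, and to 0.27 for both without the 4th set. In M1 it was 0.16 in WT and 0.28 in KO, and 0.11 and 0.13 without it. The rise in M1 within the 4th set was smaller, with a median of 2.299 in WT and 1.94 in KO, than in sets 1 to 3, where it was 3.30 to 3.98 and 3.79 to 4.40. The fall after interleukin-4 was not smaller there, at -0.89 in WT and -0.99 in KO, against -0.98 to -0.23 and -0.70 to -0.54 in the other sets. Ifnb1 was at background on the M0 arrays of the 4th set as on the others (-8.47 in WT and -7.83 in KO).

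In M0 markers of some other cells, and of the M1 and M2 states of macrophages, stood higher in the 4th set as well. The 4 B-cell markers summed to 2.85 in the 4th set of WT M0, in multiples of the 75th percentile, against 0.78 to 1.60 in the other sets, and to 3.58 against 1.01 to 1.89 in KO M0. The 3 mast-cell and basophil markers summed to 0.29 against 0.02 to 0.03 in WT M0 and to 0.64 against 0.02 in KO M0, and the 5 plasmacytoid markers to 54.1 against 45.0 to 50.8 and to 54.7 against 41.4 to 44.4. The 9 neutrophil markers summed to 175.7 against 63.5 to 154.0 in WT M0 and to 209.9 against 38.4 to 139.4 in KO M0. The 3 measured T-cell markers were not higher, at 0.99 against 1.04 to 1.27 in WT M0 and 1.18 against 1.08 to 1.42 in KO M0. In M2 the B-cell markers (2.02 against 0.04 to 0.76 in WT and 2.48 against 0.61 to 0.90 in KO) and the mast-cell and basophil markers (0.21 against 0.02 and 0.37 against 0.02 to 0.03) were again higher in the 4th set. The plasmacytoid markers (41.9 against 32.1 to 45.7 and 46.7 against 41.8 to 54.3) and the neutrophil markers (112.5 against 57.3 to 132.1 and 138.1 against 39.4 to 186.6) lay within the other sets in M2. In M0 the macrophage markers lay within or near the range of the other sets, at 436 against 394 to 420 in WT M0 and 407 against 343 to 441 in KO M0. The 4 M2-state markers (Retnla, Chil3, Mrc1 and Arg1) were higher, at 72.6 against 37.3 to 65.8 in WT M0. In KO M0 these M2-state markers were at 101.8 against 34.8 to 60.0. The part of these cells and states in the higher level of the interferon-stimulated genes was not tested. The slide position, the sex read from Xist and the Y-linked genes, and the 4th set cannot be told apart.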

How the data were processed

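The deposited scanner files hold, per the file headers, processed intensities, which Agilent Feature Extraction 10.7.3.1 had background-subtracted and detrended within each array. Version 9.1 is the one in the submitters' processing notes. The deposited table of values for the whole series was not used, since its identifiers do not match the probes.

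Outlier spots were left out, spots of a probe averaged, and log2 intensities taken relative to the array's 75th percentile. Probes well above background on at least 4 of 24 arrays were kept (39038 of 56605), and the brightest stood for a gene. The 10 missing values of the group were outlier spots. Fits used limma 3.58.1 under R 4.3.3 with 1 mean per group (18 residual degrees of freedom) and were tested on simulated data. The simulated arrays had independent noise, with no effect of the array set and no arrays that deviate together. That test therefore cannot show how the errors hold where arrays of a set move together, as they do here. A bound on a fold takes the level of the dimmest signals still above background. KO and WT arrays of the same state and number deviated together in every pair (0.17 to 0.85). Each such pair also shared a slide and an array set. The pair of the 4th set had the highest correlation in M0, M1 and M2 (0.85, 0.64 and 0.70). Deviations from a mean of 4 arrays cancel out, so a shift shared by that pair makes the other pairs correlate as well. Agreement in every pair therefore cannot show a pairing by number. Over all groups the same number gave -0.46 to 0.85, and the same set of arrays 0.08 to 0.85. The labels state no pairing, so the pairs by state and number were chosen from correlations in these same data. The set was run as a block of its own. Sets of arrays come from the slide and position in the headers.

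The genes and the lists around them were chosen with earlier results of these data known. Genes given with values by array were those called in a comparison of KO and WT or of responses, the 6 largest rises in M1 in WT, the 4 of smallest p in M2 in each genotype and the 6 with the largest median excess of the 4th set. Of the other lists, up to 5 called in KO minus WT were named, with Ifnb1, Ifnar1, Irf1 and Socs1, and 1 further gene of this rule is not reported here. Mx1 and Zbp1 in M1 and other genes outside this rule were chosen after their values were seen. Alternatives were normexp (offset 50), quantile normalization, no filter, the mean of all probes, slide, set or replicate number as a block, and leaving out arrays.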

Additional observations from a re-analysis of the deposited data

Results flagged for a closer look

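In 19 of the 230 groups of 4 values tested, 1 array lay farther from the others than Dixon's limit for 4 values allows, and chance alone would give about 1 in 20. In all 19 that array belonged to the 4th set. In M0 it was the highest for Rsad2 in WT (log2 level 1.38) and for Ddx58 (2.99), Oas1a (5.26), Oas2 (4.70), Mx2 (0.59) and Adar (1.67) in KO. In M2 it was the highest for Ddx58 (2.15), Irf7 (4.96), Oas1g (0.57), Oas2 (2.32) and Xaf1 (0.86) in WT and for Oas1g (0.26) and Ifitm3 (4.34) in KO. In M1 it was the lowest for Cmpk2 in WT (6.19) and for Ifit1 (4.97), Ifit2 (5.22), Mx2 (3.03), Eif2ak2 (1.46) and Cmpk2 (4.86) in KO.

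The response to lipopolysaccharide and interferon-gamma differed between the genotypes for 3 genes by the test of the difference itself, with KO minus WT values of 1.23 for Herc6, -1.31 for Dhx58 and -1.22 for the brightest of the 5 probes of Samhd1, whose other 4 gave -0.76 to -0.17 and did not pass (adjusted p = 0.0517 to 0.928, limma over all probes).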

How the results depend on the processing

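In M1 against M0, 40 genes were called in both genotypes under the alternatives run, apart from 39 in WT with the mean over all probes (Ifih1 lost) and 38 in KO with quantile normalization (Samhd1 and Oas1b lost), and 40 to 40 with each array left out. None were called in KO minus WT in M0 or M2 and in the difference of the M2 response under these alternatives, or with an array left out (0 to 0). Calls in M2 minus M0 were 10 in WT and 9 in KO, and became 5 (WT) with no filter on dim probes, 5 (WT) with the slide as a block, 20 and 21 without the 4th set, and 3 and 1 with the 2 compared groups alone, an alternative chosen after seeing the data. Over all genes 1364 were called higher and 2524 lower in WT. These became 1144 and 1957, 1434 and 2760, 1438 and 4165, and 683 and 1110, in that order. In KO they were 1690 and 1446, then 1828 and 1741 without the 4th set and 1183 and 1017 with the 2 groups alone. Each array left out in turn gave 5 to 15 and 3 to 12. Calls in KO minus WT in M1 were 7, and became 17 with quantile normalization, 11 without the 4th set, 14 with the replicate block within state and 14 with the 2 groups alone (5 to 7 with an array left out). Of the 25956 genes tested 6198 were called higher and 5108 lower. These became 4469 and 6855, 7713 and 5273, 8221 and 6187, and 6448 and 5153, in that order. On average over the states the calls of the group were 4, and became 9 with quantile normalization, 10 without the 4th set and 13 with the replicate block within state (4 to 6). Over all genes 3982 were called higher and 3117 lower. These became 2906 and 4658, 5888 and 3269, and 6307 and 4584, in that order. In the difference of the M1 response the calls of the group were 3, and became 7 with quantile normalization, 5 with the replicate block over all groups, 9 without the 4th set and 13 with the replicate block within state (3 to 5). Over all genes 4042 were called higher and 3491 lower. These became 3125 and 4829, 4279 and 3683, 5064 and 3601, and 5739 and 4669, in that order. The replicate block changed no other count of calls by over 1.5 times. Of the calls of single genes under an alternative 1906 were kept and 3 changed sign, the others being lost: with the mean over all probes Mx2 (0.44) and Adar (0.019) in KO minus WT in M1, whose other probes read differently, and with quantile normalization Samhd1 in M1 minus M0 in KO (-0.0060). For the other changes the cause was not tested. The excess of the 4th set kept its direction in all 3 states under quantile normalization and normexp.

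With 4 arrays a group, the wide spread of the M0 and M2 groups enters the error of every comparison, and in the most variable genes large differences did not pass, such as those of Ifi44 (-2.17, SE 1.29) in KO M2 and Irf7 (-1.74, SE 0.92) in WT M2. Rises of dim genes are compressed on arrays. Ifi44 was near background on several arrays.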

Other observations

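Of 35 relatives and partners of these genes, 28 were measured. In M1 22 rose and 2 fell in WT, and 18 rose and 3 fell in KO, where 23.2% and 22.9% of all genes in WT and 32.3% and 23.2% in KO were called higher and lower. In M2 none rose, and 7 fell in WT and 3 in KO, where 9.72% and 5.57% of all genes were called lower. In KO M1 2 were higher and 9 lower than in WT, with a median difference of -0.32, against 0.17 over all genes, where 23.9% of all genes were called higher and 19.7% lower. With the pairing it was 2 and 12, where 31.7% and 23.8% of all genes were. Ifi27 (1.90, SE 0.17, adjusted p = 1.22e-08, limma) and Zc3hav1, the zinc-finger protein that binds viral RNA (1.13, SE 0.12, adjusted p = 1.25e-07), were the 2 higher. Ripk3, a kinase of necroptosis, was 4.68-fold lower (SE 0.26 on the log2 scale, adjusted p = 6.93e-07), Oas1c 4.06-fold lower (SE 0.20, adjusted p = 5.58e-08) and Oas1e 3.66-fold lower (SE 0.22, adjusted p = 4.99e-07). All 5 kept their direction and their call with quantile normalization.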
